A study of Mus musculus with 33 samples.

Results

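Gene expression in 3 mammary tumours whose titles end in VEH_7 was compared with that in 5 mammary tumours whose titles end in _WT. The members were taken from the sample titles, and they are 8 of the 33 tumours in the series. The contrast is VEH_7 minus WT over all genes, so a positive log2 fold change means a higher level in the VEH_7 tumours. Both groups carry the genotype label FVB, an inbred mouse strain. The VEH_7 tumours have the treatment label Vehicle, the carrier without drug, and the WT tumours have the treatment label None. The growth protocol says of the study that tumours were transplanted into mice, and the treatment protocol gives vehicle or RP-6306, an inhibitor of the kinase PKMYT1. The design text names cyclin E transgenic tumours and PyMT tumours, the latter driven by the polyoma middle T oncogene. The labels do not say what the ending _7 or the ending WT stands for, which tumours are cyclin E transgenic or PyMT, whether the WT tumours were transplanted, or whether tumours of a group came from separate donor tumours or animals. The p-values therefore measure the spread between these samples, which may be technical. Tumour line, vehicle, any transplantation and sequencing depth differ between the groups together and cannot be told apart.

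Mammary epithelium is a sheet of luminal and basal cells held together by E-cadherin junctions, tight junctions and desmosomes, and its luminal cells can make milk proteins. In epithelial-mesenchymal transition, cells lose these junctions and turn on vimentin, fibronectin and the transcription factors of the ZEB, SNAIL, TWIST and PRRX families. ZEB and SNAIL proteins are repressors that bind E-box elements in the promoters of epithelial genes. Cyclin E binds and activates CDK2 at the entry to S phase, and PKMYT1 and WEE1 hold CDK1 inactive until mitosis. These statements are background and not results of these data.

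The VEH_7 and WT tumours differed in most genes. Of 16894 genes tested with edgeR's quasi-likelihood test, 10209 had a Benjamini-Hochberg adjusted p under 0.05, which is 60.4%. In the VEH_7 tumours 4867 genes (28.8%) were higher and 5342 (31.6%) were lower. "Called" is used below for genes past this threshold, and counts of called genes in a list are to be read against these shares. The median log2 fold change over all genes tested was -0.06. At a tested fold of at least 2, 2263 genes (13.4%) were higher and 2594 (15.4%) lower. Levels are given as CPM, counts scaled by each library's effective size. The groups did not overlap in CPM in 9988 genes (59.1%), with 4940 (29.2%) higher and 5048 (29.9%) lower in the VEH_7 tumours. A lack of overlap in a gene named below is to be read against these shares. In log2 CPM, Pearson correlations across genes between libraries were 0.975 to 0.98 among the VEH_7 tumours, 0.93 to 0.96 among the WT tumours and 0.674 to 0.772 between the groups. These are descriptions, since genes are not independent replicates. The VEH_7 libraries held 26517748 to 32054686 counts and the WT libraries 15136773 to 18433182. Thinned to the smallest of these totals, 9974 genes were called. The WT tumours were spread along the second principal component. WT tumour 5 lay at the low end, at -74.7 against -20.68 to 48.86 in the other WT tumours. Without it 10560 genes were called, 5115 higher and 5445 lower.

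Genes of epithelial adhesion were lower in the VEH_7 tumours. All 25 tested members of the list of epithelial adhesion and junction genes fell, against 31.6% of all genes tested, with a median log2 fold change of -6.82. The count was also 25 with any 1 library left out. Summed over the list, the members were at 125 to 164 CPM in the VEH_7 tumours and 4587 to 6190 CPM in the WT tumours. Promoters of 4 of these genes are shown because they hold E-box letters that ZEB and SNAIL proteins are known to bind, and the promoter of Vim is shown beside them as a gene that moved the other way. Each window runs from 250 bases before to 50 bases after a RefSeq transcription start in GRCm38.p6, printed 5′ to 3′ on the gene's own strand. Capitals mark CAGGTG or its reverse complement CACCTG. Epcam lies at chr17:87635729-87636028 (plus strand), Rab25 at chr3:88548230-88548529 (minus strand), Crb3 at chr17:57061951-57062250 (plus strand), Ap1m2 at chr9:21312284-21312583 (minus strand) and Vim at chr2:13574061-13574360 (plus strand).
Epcam: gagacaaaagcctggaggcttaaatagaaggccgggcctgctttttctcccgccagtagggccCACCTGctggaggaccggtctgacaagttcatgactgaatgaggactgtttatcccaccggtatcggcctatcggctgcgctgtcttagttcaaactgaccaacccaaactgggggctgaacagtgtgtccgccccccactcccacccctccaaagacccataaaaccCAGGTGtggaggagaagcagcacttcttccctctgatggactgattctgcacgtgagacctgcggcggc
Rab25: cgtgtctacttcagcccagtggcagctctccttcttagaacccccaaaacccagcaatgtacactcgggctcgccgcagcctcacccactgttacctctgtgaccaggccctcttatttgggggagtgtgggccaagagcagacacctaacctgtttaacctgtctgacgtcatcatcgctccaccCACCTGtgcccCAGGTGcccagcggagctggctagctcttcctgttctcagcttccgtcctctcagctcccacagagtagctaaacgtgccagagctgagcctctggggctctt
Crb3: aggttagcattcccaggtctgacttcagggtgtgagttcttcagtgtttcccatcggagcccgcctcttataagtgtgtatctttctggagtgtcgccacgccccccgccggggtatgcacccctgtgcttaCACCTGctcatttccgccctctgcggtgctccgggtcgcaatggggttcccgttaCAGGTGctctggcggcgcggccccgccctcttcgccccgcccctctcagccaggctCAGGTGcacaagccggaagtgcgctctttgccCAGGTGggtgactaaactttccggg
Ap1m2: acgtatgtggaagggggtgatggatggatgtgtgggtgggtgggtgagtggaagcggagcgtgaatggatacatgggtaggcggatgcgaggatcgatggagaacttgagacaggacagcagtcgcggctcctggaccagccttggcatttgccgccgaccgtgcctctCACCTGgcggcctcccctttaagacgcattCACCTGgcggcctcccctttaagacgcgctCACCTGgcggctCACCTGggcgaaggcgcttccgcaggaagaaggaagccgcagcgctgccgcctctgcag
Vim: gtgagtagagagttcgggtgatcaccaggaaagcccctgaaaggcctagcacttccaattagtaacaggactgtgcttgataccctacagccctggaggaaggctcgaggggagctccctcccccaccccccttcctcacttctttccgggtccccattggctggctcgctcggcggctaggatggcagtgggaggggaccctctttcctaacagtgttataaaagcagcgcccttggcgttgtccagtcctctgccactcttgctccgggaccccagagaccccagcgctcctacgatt

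The motif occurred 2 times in the windows of Epcam and Rab25, 4 times in those of Crb3 and Ap1m2 and 0 times in that of Vim. Over all 32851 mouse promoter windows of the same length, 20.2% held CAGGTG on either strand and 2.88% held it 2 or more times. Counted per gene over any of its windows, these shares were 22.6% and 3.32% of 27025 genes with a promoter entry. Among the 17 epithelial adhesion genes with a promoter entry, 14 held it, and 9 of the 17 held it 2 or more times. Of 8 genes in the list of EMT regulators with an entry, 1 held it. Some lists with more rises than falls held it more often than all genes with an entry did. It was in 7 of 14 Wnt genes, 7 of 15 T cell genes and 5 of 6 B cell and plasma cell genes. Whether the members with the motif were those that rose was not examined. By fold change, it was present in at least 1 window of 43.1% of the 529 genes with a log2 fold change below -5, of 18.8% of the 6340 genes between -1 and 1, and of 15.6% of the 167 genes above 5. A match is a description of the letters and not a binding site.

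**Figure D1:**
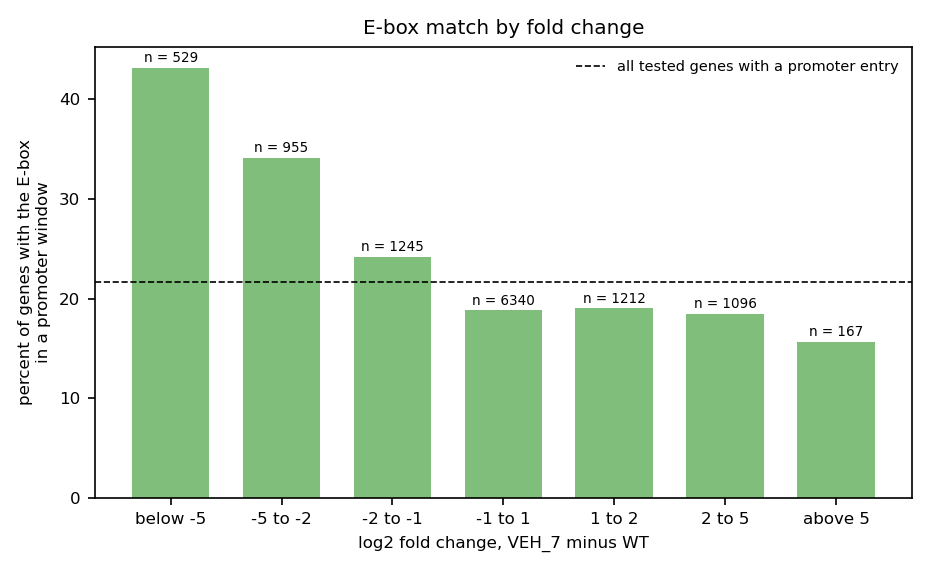
Percent of tested genes whose RefSeq promoter window (250 bases before to 50 after a start) holds the E-box on either strand, by log2 fold change of VEH_7 minus WT; n is the number of genes with a promoter entry in each bar, and the dashed line is the share over all 11544 such genes (21.7%). The share is 43.1% in the lowest bar and 15.6% in the highest.

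Epcam (ENSMUSG00000045394, chromosome 17, 87635979 to 87651129), an epithelial adhesion molecule, was at 9.74, 0.977 and 4.31 CPM in the 3 VEH_7 tumours. It was at 988, 859, 941, 1144 and 656 CPM in the 5 WT tumours. The groups did not overlap, VEH_7 tumour 1 was the highest of the VEH_7 tumours, and the log2 fold change was -7.53 (SE 0.73, adjusted p = 1.51e-05), or -8.45 without VEH_7 tumour 1. Cdh1 (chromosome 8, 106603351 to 106670246), which encodes E-cadherin, was at 23.5, 9.02 and 12 CPM against 416, 394, 403, 542 and 473 CPM. It fell by 4.92 on the log2 scale (SE 0.36, adjusted p = 2.11e-06), and the WT tumours were all above the VEH_7 tumours. Rab25, a small GTPase of apical recycling, was at 0.758, 0.0651 and 0.138 CPM against 150, 145, 141, 138 and 106 CPM, a log2 fold change of -8.77 that was -10.33 without VEH_7 tumour 1. Crb3, an apical polarity protein, was at 0.265, 0 and 0.0345 CPM against 53.1, 58, 49.6, 43.8 and 31.7 CPM. Its log2 fold change of -8.90 ranged with the library left out, being -11.03 without VEH_7 tumour 1 and -8.29 without VEH_7 tumour 2. Ap1m2, the epithelial clathrin adaptor subunit, had a log2 fold change of -8.08, and -9.90 without VEH_7 tumour 1. Spint1, an inhibitor of the membrane protease matriptase, and the desmosomal gene Pkp3 had log2 fold changes of -6.39 and -5.29.

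Regulators of the epithelial state were lower too. All 14 tested epithelial transcription and splicing regulators fell, with a median log2 fold change of -7.28. Esrp1 and Esrp2, which direct epithelial splice forms, had log2 fold changes of -7.42 (SE 0.80) and -7.96 (SE 0.37). Esrp1 was at 3.33, 0.0977 and 1.24 CPM in the VEH_7 tumours and 328, 260, 231, 280 and 209 CPM in the WT tumours. Its fold change was -8.62 without VEH_7 tumour 1. Grhl2, a grainyhead factor that activates junction genes, was at 1.1, 0.0977 and 0.517 CPM against 82.1, 99, 99.5, 131 and 98.9 CPM, a log2 fold change of -7.51, and -8.37 without VEH_7 tumour 1. Tfap2c, a transcription factor of mammary and skin epithelium, was at 0.379, 0 and 0 CPM against 146, 272, 190, 240 and 286 CPM. Its log2 fold change was -10.85 (adjusted p = 2.01e-06), -10.24 without VEH_7 tumour 2 and -10.26 without VEH_7 tumour 3. Without VEH_7 tumour 1 the VEH_7 tumours had no count of Tfap2c, and the fitted value of -15.24 is no bound. VEH_7 tumour 1 was the highest of the 3 for Epcam, Cdh1, Rab25, Crb3, Esrp1, Grhl2 and Tfap2c, and in each of these it was below every WT tumour.

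The tissue label of all 8 samples is mammary tumour, and the markers of mammary epithelium that this label implies were near 0 in the VEH_7 tumours. Of 20 luminal markers, 15 fell, 1 rose and 4 were not called, with a median log2 fold change of -5.10. Krt8 and Krt18, the simple keratins of luminal cells, were at 4.62 to 20.5 CPM and 3.42 to 13.8 CPM in the VEH_7 tumours. They were at 738 to 1163 CPM and 727 to 1285 CPM in the WT tumours. Their log2 fold changes were -6.48 and -6.92, and -7.36 and -7.57 without VEH_7 tumour 1. Gata3, the luminal fate factor, fell by 4.10 on the log2 scale. Elf5, the factor of the alveolar lineage, was at 1.82, 0 and 0.758 CPM against 415, 392, 354, 366 and 261 CPM, a log2 fold change of -8.73 that was -9.89 without VEH_7 tumour 1 and -8.12 without VEH_7 tumour 2. Muc1, an apical mucin, fell by 5.01. The count that rose was 0 without VEH_7 tumour 2 or 3 and with an offset for gene length and GC. Esr1, the oestrogen receptor, was at 8.98 to 14.5 CPM against 5.57 to 12.1 CPM and was not called (log2 fold change 0.28, adjusted p = 0.409).

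Milk genes were far lower in the VEH_7 than in the WT tumours, and levels of some of them in the other groups are given below. Of 14 tested milk and alveolar genes, 13 fell and 1 was not called, with a median of -6.96. Csn3 (chromosome 5, 87925579 to 87932665), which encodes kappa-casein, was at 5.99, 0 and 0.999 CPM in the VEH_7 tumours. It was at 15162, 8016, 14649, 10568 and 5079 CPM in the WT tumours, so that every WT tumour was far above every VEH_7 tumour. The log2 fold change was -12.18 (SE 1.48, adjusted p = 7.09e-05), -11.58 without VEH_7 tumour 2, and a fitted -14.39 without VEH_7 tumour 1. Wap, the whey acidic protein, had no count in the VEH_7 tumours and 14.3 to 65 CPM in the WT tumours, which is at least 999-fold lower when 3 counts over the VEH_7 group are taken as the floor. Lalba, the lactose synthase subunit, was at 0, 0.0326 and 0.241 CPM against 126 to 300 CPM, a log2 fold change of -10.97, and -13.03 without VEH_7 tumour 3. Stat5a, the transcription factor of the prolactin signal, fell by 2.25. Lcn2 (chromosome 2, 32384633 to 32388252), the iron-binding lipocalin of inflamed and secretory epithelium, was at 3.3, 0.456 and 2.52 CPM against 9747, 11839, 16810, 8627 and 7644 CPM, a log2 fold change of -12.37 (SE 0.86).

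Basal markers gave a mixed picture. Of 20, 13 fell, 3 rose and 4 were not called, with a median of -2.17. Krt5 and Krt14, the basal keratins, had log2 fold changes of -3.47 and -3.58. Krt5 was -4.22 without VEH_7 tumour 1, and Krt14 was -2.76 without WT tumour 5, where it was at 271 CPM against 44.5 to 91.7 CPM in the other WT tumours. Trp63, the master factor of basal cells, fell by 4.40. Sox10, a neural crest and mammary progenitor factor, was at 1.82, 0.326 and 0.689 CPM against 906, 863, 818, 666 and 506 CPM. Its log2 fold change was -9.66 (SE 0.61), and -10.53 without VEH_7 tumour 1. The 3 members that rose were Acta2, Tagln and Dst. Acta2, smooth muscle actin, was at 254, 115 and 84.4 CPM against 17.7 to 28.4 CPM, a log2 fold change of 2.76, and 2.16 without VEH_7 tumour 1. Among 7 tested genes of squamous differentiation 4 fell and 0 rose. Calml3, an epithelial calmodulin, had no count in the VEH_7 tumours and was at least 663-fold lower. Sbsn, the suprabasal gene suprabasin, had a log2 fold change of -4.17, and -4.78 without VEH_7 tumour 2. Krt1 and Krt10, keratins of stratified epidermis, were not called, and the fitted value of Krt1 went from 0.23 to -3.70 without VEH_7 tumour 2 and to 0.83 without WT tumour 2.

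Genes of the mesenchymal state were higher in the VEH_7 tumours. Of 14 EMT genes, 13 rose, against 28.8% of all genes tested, and 1 fell, with a median log2 fold change of 3.98. Vim (chromosome 2, 13573927 to 13582826), the mesenchymal intermediate filament, was at 4265, 4561 and 4550 CPM in the VEH_7 tumours. It was at 167, 149, 216, 162 and 370 CPM in the WT tumours. The groups were wide apart, and the log2 fold change was 4.37 (SE 0.33, adjusted p = 2.59e-06). Fn1, fibronectin, was at 11594, 26080 and 15841 CPM against 55.2, 59.8, 97.2, 123 and 1070 CPM. WT tumour 5 was 1 library apart from the other WT tumours in this gene, and the log2 fold change of 5.96 became 7.73 without it. Zeb1 and Zeb2, the E-box repressors, had log2 fold changes of 5.61 (SE 0.23) and 4.70 (SE 0.19). Zeb1 was at 238, 289 and 278 CPM against 5.41, 6.41, 7.25, 4.64 and 3.67 CPM. Prrx1, a homeobox factor of limb and craniofacial mesenchyme, was at 372, 395 and 300 CPM against 4.14 to 7.63 CPM, a log2 fold change of 5.83 (SE 0.24). Snai1 rose by 3.58 and Twist1 by 3.55 on the log2 scale, and in both the groups did not overlap. The member that fell was Cdh2, which encodes N-cadherin, the cadherin that is often gained in this transition. Cdh2 was at 0.871, 0.781 and 0.482 CPM against 3.47, 2.03, 1.49, 5 and 3.62 CPM, a log2 fold change of -2.13 (adjusted p = 0.00383, and 0.0628 in a fit over 32 libraries).

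**Figure D2:**
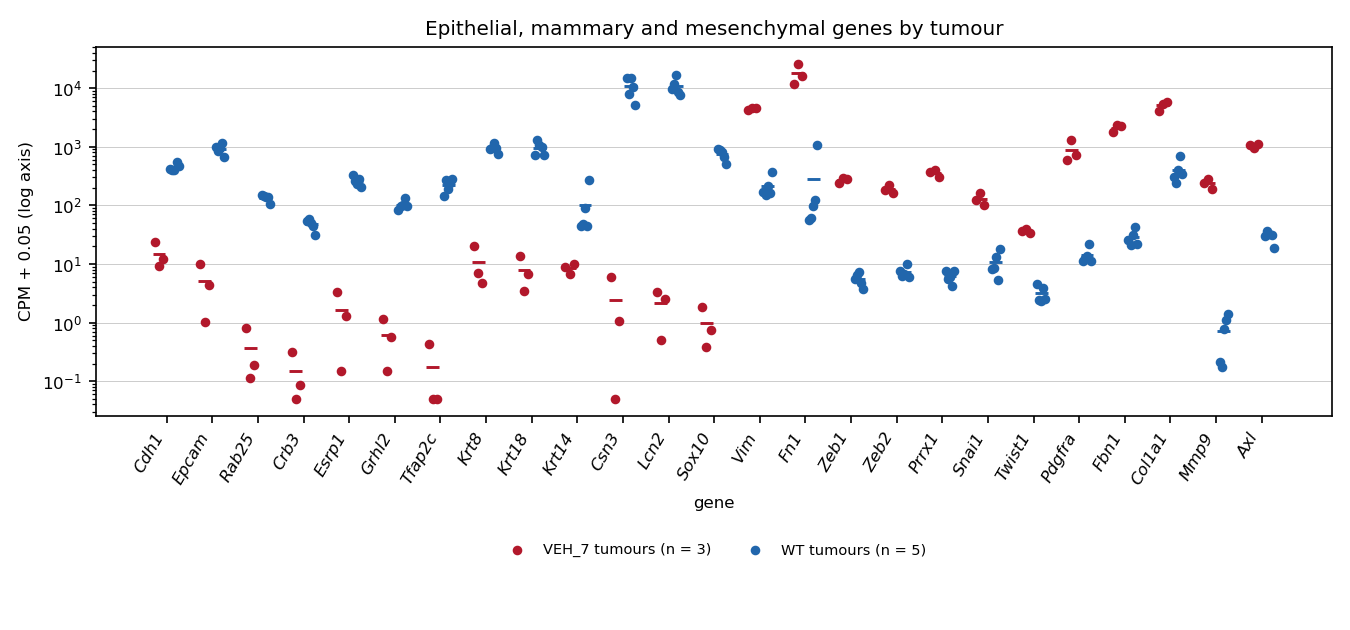
CPM plus 0.05 of 25 genes on a log axis in the 3 VEH_7 tumours (red) and the 5 WT tumours (blue), with 1 point per tumour and a bar at the group mean. In the 13 genes from Cdh1 to Sox10 every VEH_7 tumour is below every WT tumour, and in the 12 genes from Vim to Axl every VEH_7 tumour is above. Over all genes tested, the groups did not overlap in 59.1%.

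Fibroblasts share most of these genes, and in bulk tumour RNA a change in the number of cells of a type and a change in RNA per cell cannot be told apart. Of 20 fibroblast markers, 13 rose, 1 fell and 6 were not called, with a median of 3.07. The markers that were not called included Fap, Dpt, Pi16, Thy1 and Mfap5, at log2 fold changes of 0.60, 0.09, -0.39, 0.61 and 0.25. Pdgfra, the PDGF receptor of fibroblasts, was at 598, 1326 and 714 CPM against 11.1, 12.5, 13.7, 21.6 and 11.4 CPM, a log2 fold change of 5.96. Fbn1, a microfibril protein, was at 1778, 2321 and 2284 CPM against 21.1 to 42.8 CPM, a log2 fold change of 6.21. Pdgfrb rose by 3.64. The summed level of the fibroblast list was 12124 to 19070 CPM in the VEH_7 tumours and 822 to 1347 CPM in the WT tumours, and the part of stromal cells in the rise of the EMT genes was not tested.

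Extracellular matrix genes rose in 1 set of families and fell in another. Of 31 tested collagen genes, 18 rose, 8 fell and 5 were not called, with a median of 2.21. Col1a1 and Col1a2, the fibrillar type I collagen chains, rose by 3.68 and 3.40. Col1a1 was at 4111, 5355 and 5799 CPM against 305, 245, 395, 691 and 342 CPM. The 8 that fell were Col9a1, Col9a2, Col9a3, Col11a1, Col11a2, Col4a4, Col4a5 and Col4a6, which belong to the type IX and type XI collagens of cartilage and to the minor type IV chains of basement membrane. Col9a1 was at 0.152, 0 and 0.345 CPM against 576, 524, 468, 346 and 410 CPM. Its log2 fold change was -11.44, and -10.83 without VEH_7 tumour 2 and -12.56 without VEH_7 tumour 3. Col9a2 and Col9a3 had log2 fold changes of -9.80 (SE 0.43) and -6.96 (SE 0.34). Of 12 tested cartilage and bone genes 9 fell and 3 rose. Acan, the cartilage proteoglycan aggrecan, rose and is described with the extremes below. Col2a1, the main cartilage collagen, had a log2 fold change of -7.64, -7.04 without VEH_7 tumour 2 and -9.30 without VEH_7 tumour 3. Sox9, the chondrocyte and progenitor factor, fell by 0.89 (adjusted p = 0.0193), and lost that call without VEH_7 tumour 1, 2 or 3 (adjusted p = 0.0542, 0.0654 and 0.062).

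Of 17 tested matrix metalloproteinases and their TIMP inhibitors, 11 rose and 2 fell. Mmp9, a gelatinase, was at 245, 279 and 188 CPM in the VEH_7 tumours and 0.165, 0.127, 0.713, 1.06 and 1.34 CPM in the WT tumours. The log2 fold change was 8.40 (SE 0.51, adjusted p = 7.41e-07), and no tumour of a group came near the other group. Timp1 rose by 4.07 and Mmp2 by 1.80. Mmp3, stromelysin, rose by 3.48, and by 2.47 without VEH_7 tumour 2, and Mmp13, collagenase 3, rose by 3.41, 2.82 without VEH_7 tumour 2 and 4.03 without WT tumour 5. Of 24 integrin and laminin genes 12 rose and 6 fell. Itga5, the fibronectin receptor subunit, was at 515, 603 and 486 CPM against 10.3 to 20.4 CPM, a log2 fold change of 5.08, and Itga11, a collagen receptor subunit, rose by 3.63. Itga1 and Itga2, which also encode collagen receptor subunits, were not called. Itgb6, an integrin of epithelia, had a log2 fold change of -7.01, -8.98 without VEH_7 tumour 1 and -6.41 without VEH_7 tumour 2, and Lama5, a laminin chain of epithelial basement membrane, fell by 3.50.

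Signalling genes are given below by ligands, receptors and targets. Of 17 tested TGF-beta genes, 14 rose, 1 fell and 2 were not called, with a median of 1.61. The ligand Tgfb1 was at 201, 180 and 164 CPM against 40.6, 51.2, 47.5, 74.8 and 48.8 CPM, a log2 fold change of 1.78 (SE 0.19). Inhba, which encodes the activin A subunit, was at 206, 368 and 274 CPM against 2.66 to 6.18 CPM and rose by 6.11. The target gene Tgfbi rose by 5.89. Tgfb2 rose by 0.82 (adjusted p = 0.0195), a call lost without VEH_7 tumour 2 (adjusted p = 0.106) and with the length and GC offset (0.0606). Of 18 BMP genes 8 rose and 5 fell, against 28.8% and 31.6% of all genes tested. The count that fell was 3 without VEH_7 tumour 3 or without WT tumour 5. The ligand Bmp2 rose by 3.24, 2.46 without VEH_7 tumour 2 and 3.87 without WT tumour 5, and the protease Bmp1, which matures procollagens, rose by 2.95. The antagonist Chrdl1 was at 33.4, 108 and 151 CPM against 0.835 to 3.14 CPM, a log2 fold change of 5.60. The antagonist Grem1 rose by 6.98, 5.44 without VEH_7 tumour 2 and 7.70 without WT tumour 5.

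Of 20 Wnt genes, 12 rose, 3 fell and 5 were not called, with a median of 2.26. The ligand Wnt10a was at 158, 206 and 87.9 CPM in the VEH_7 tumours and 0.11, 0.444, 0.119, 0.0505 and 0.557 CPM in the WT tumours. Its log2 fold change was 9.19 (SE 0.51, adjusted p = 4.84e-07). The ligands Wnt2b and Wnt4 were not called, and Wnt4 was at 4.5 CPM in WT tumour 2 against 0.221 to 1.01 CPM in the other WT tumours. The secreted antagonist Dkk2 was at 233, 394 and 377 CPM against 0.772 to 2.66 CPM, a log2 fold change of 7.78. Axin2, a common target of the canonical pathway, was at 38.2, 59.7 and 26 CPM against 1.49, 3.62, 2.08, 2.07 and 1.67 CPM, a log2 fold change of 4.23 (SE 0.35). Notum, a target and feedback inhibitor, rose by 6.13, 5.36 without VEH_7 tumour 2 and 7.51 without WT tumour 5. The potentiator Rspo3 had a log2 fold change of -4.46, and -3.78 without WT tumour 3, and the groups overlapped.

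ErbB genes fell more often than they rose, and Notch genes were split. Of 13 Notch genes 4 rose and 6 fell, against 28.8% and 31.6% of all genes tested. The count that fell was 5 to 7 with 1 library left out and 4 to 7 over the other settings. The receptor Notch2 rose by 2.57, whereas the receptor Notch3 and the ligand Dll1 had log2 fold changes of -2.40 and -4.29. The target Hey1 was at 5.08, 3.94 and 4.79 CPM against 366, 227, 204, 267 and 86.6 CPM, a log2 fold change of -5.65 (SE 0.47). Notch1 was at 57.4 to 65.7 CPM against 65.1 to 199 CPM and was not called (adjusted p = 0.0527), but was called without WT tumour 1 (0.0222), without WT tumour 5 (0.0322), with no filter (0.0451), with DESeq2 (0.0327), in thinned libraries (0.0473) and with the length and GC offset (0.00712). Of 11 tested ErbB genes 7 fell and 1 rose, and 2 rose without WT tumour 2. The receptor genes Erbb2 and Erbb3 had log2 fold changes of -1.49 and -5.22, and Erbb3 was -5.84 without VEH_7 tumour 1. The ligand Nrg2 fell by 5.96. Egfr was at 72.1, 91.7 and 126 CPM against 50.9 to 144 CPM and was not called. The ligand that rose was Hbegf, at 119, 127 and 158 CPM against 7.61 to 19 CPM, a log2 fold change of 3.39.

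Of 20 tested receptors and ligands of the FGF, PDGF, MET and AXL systems, 12 rose and 5 fell, and 3 fell without VEH_7 tumour 2 or 3. The kinase Axl, often seen in mesenchymal tumour cells, was at 1068, 963 and 1095 CPM against 29.7, 36.2, 32, 30.8 and 18.7 CPM, a log2 fold change of 5.13 (SE 0.23). Hgf, the ligand of MET, was at 29.4, 47.5 and 47.1 CPM against 0.0634 to 0.331 CPM, a log2 fold change of 7.41. Met itself was at 747, 756 and 982 CPM against 63.9, 76.8, 78.3, 121 and 75.2 CPM, a log2 fold change of 3.31. Ligand and receptor were both higher, and in neither gene did the groups overlap, as in 59.1% of all genes tested. Fgfr1 rose by 1.33 (adjusted p = 0.013), a call lost without VEH_7 tumour 2 (0.0528) and with the length and GC offset (0.0559). Fgfr2, which in its epithelial splice form marks epithelia, fell by 2.65 (adjusted p = 0.0207), a call lost without VEH_7 tumour 2 (0.0618), without VEH_7 tumour 3 (0.0539) and in a fit over 32 libraries (0.166). Without WT tumour 2, where Fgfr2 was at 18.9 CPM, its log2 fold change was -1.88.

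The gene of the kinase that the drug of this study inhibits did not differ beyond its spread. Pkmyt1 (chromosome 17, 23726336 to 23736735) was at 24.4, 16 and 33.4 CPM in the VEH_7 tumours and 22, 23.5, 19.4, 18.2 and 29 CPM in the WT tumours. The ranges overlapped, and the log2 fold change was 0.12 (SE 0.25, adjusted p = 0.696). Wee1, the other kinase that restrains CDK1, had a log2 fold change of -0.03 (SE 0.20, adjusted p = 0.901) and Cdk1 of 0.13 (SE 0.24, adjusted p = 0.658). Ccnb1, the mitotic cyclin B1, was at 67.3, 43.4 and 47.8 CPM against 38.1, 28.3, 24.4, 26 and 48.8 CPM. It rose by 0.66 (adjusted p = 0.0463), and the call was lost without any of 6 libraries: VEH_7 tumours 1 and 3 (adjusted p = 0.213 and 0.0689) and WT tumours 1, 2, 3 and 4 (0.051, 0.0829, 0.0948 and 0.091). It was also lost in a fit over 32 libraries (0.0541) and with the length and GC offset (0.0889). Of 13 genes of the PKMYT1, WEE1 and CDK1 switch, 4 rose and 1 fell, shares of the list close to or below those over all genes, and 2 rose without any of 4 libraries (VEH_7 tumours 1 and 3, WT tumours 3 and 4). Without WT tumour 4, 2 fell. Cdc25b, a phosphatase that activates CDK1, rose by 1.83, and the checkpoint kinase Chek2 fell by 1.09. Mki67, the proliferation marker, was at 319, 247 and 349 CPM against 217 to 383 CPM and was not called (log2 fold change -0.01, adjusted p = 0.964).

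Both E cyclins were higher in the VEH_7 tumours. Ccne1 (chromosome 7, 38097984 to 38107534) was at 25.5, 16.1 and 27.8 CPM against 6.62, 6.47, 9.8, 4.49 and 13.3 CPM. It rose by 1.49 (SE 0.35, adjusted p = 0.00401), and the groups did not overlap. Ccne2 was at 25.2, 14.7 and 21.1 CPM against 3.81, 3.55, 4.75, 3.58 and 6.4 CPM, a log2 fold change of 2.19 (SE 0.28, adjusted p = 0.000105). The counts are of the mouse gene, and nothing here tells full-length from low molecular weight forms of the protein or reads a transgene apart. Of 12 tested genes of cyclin E, CDK2 and their turnover, 5 rose and 5 fell. Skp2 and Fbxw7, substrate adaptors of ubiquitin ligases that act on p27 and on cyclin E, had log2 fold changes of 1.02 and -0.72, the latter not called in a fit over 32 libraries (adjusted p = 0.0592). The CDK inhibitors Cdkn1a (p21), Cdkn1b (p27) and Cdkn1c (p57) had log2 fold changes of -1.04, -0.60 and -2.55. Cdkn1a overlapped between the groups, with 64.2 CPM in WT tumour 1 and 66.7 CPM in VEH_7 tumour 2.

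Most D cyclin, INK4 and Rb family genes were higher. Of 15, 11 rose and 2 fell, with a median of 1.02. Without VEH_7 tumour 2 or 3, or with the length and GC offset, 1 fell. Ccnd1, cyclin D1, was at 581, 393 and 493 CPM against 116 to 186 CPM, a log2 fold change of 1.61, and Ccnd2, cyclin D2, at 40.4, 27.7 and 40.2 CPM against 4.38 to 16.6 CPM. Cdk6, their kinase partner, was at 286, 261 and 257 CPM against 29.3, 22.8, 22, 20.3 and 20.8 CPM, a log2 fold change of 3.53 (SE 0.16, adjusted p = 1.62e-07). The INK4 inhibitor gene Cdkn2a (chromosome 4, 89274471 to 89294653) was at 337, 284 and 339 CPM against 3.2, 27.5, 12.8, 4.54 and 21.1 CPM, a log2 fold change of 4.51 (SE 0.61, adjusted p = 0.000137). Counts per gene cannot tell its p16 and p19Arf transcripts apart. Its neighbour Cdkn2b rose by 3.33. Rb1, the retinoblastoma protein gene, was at 33.2, 44.4 and 31.4 CPM against 60.3, 137, 93.8, 197 and 83.4 CPM and fell by 1.66 (SE 0.36, adjusted p = 0.00253). E2f1, which is released from the Rb protein and activates replication genes, was at 97.8, 73 and 104 CPM against 9.58 to 24 CPM and rose by 2.50.

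Replication and mitosis genes were modestly higher. Of 34 G1/S and replication genes 18 rose and 0 fell, with a median of 0.64. The helicase subunits Mcm2, Mcm3 and Mcm6 rose by 1.19, 1.30 and 1.81 and the polymerase subunit Pola1 by 1.28. Of 30 G2/M and mitosis genes 22 rose and 0 fell, with a median of 0.98. Anln, a protein of the cytokinetic ring, was at 216, 179 and 184 CPM against 28.5, 25.6, 28.2, 23.9 and 60.5 CPM, a log2 fold change of 2.52. Ect2, a nucleotide exchange factor of cytokinesis, rose by 2.07, and Foxm1, the transcription factor of mitotic genes, by 1.72. Top2a rose by 1.20 (adjusted p = 0.0125, and 0.0586 with the length and GC offset), and its groups overlapped, with WT tumour 5 at 246 CPM against 77.1 to 114 CPM in the other WT tumours. Of 30 DNA repair genes 7 rose and 1 fell, against 28.8% and 31.6% of all genes. Without WT tumour 5, 15 rose, and 0 fell without VEH_7 tumour 1 or 2. Topbp1, an activator of the ATR checkpoint, rose by 1.65 and Atm by 1.67. Brca1 was at 27.3, 23.5 and 37.3 CPM against 10.2 to 33.1 CPM and was not called (adjusted p = 0.0995), except without WT tumour 5 (0.00293) and with limma voom (0.0388).

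**Figure D3:**
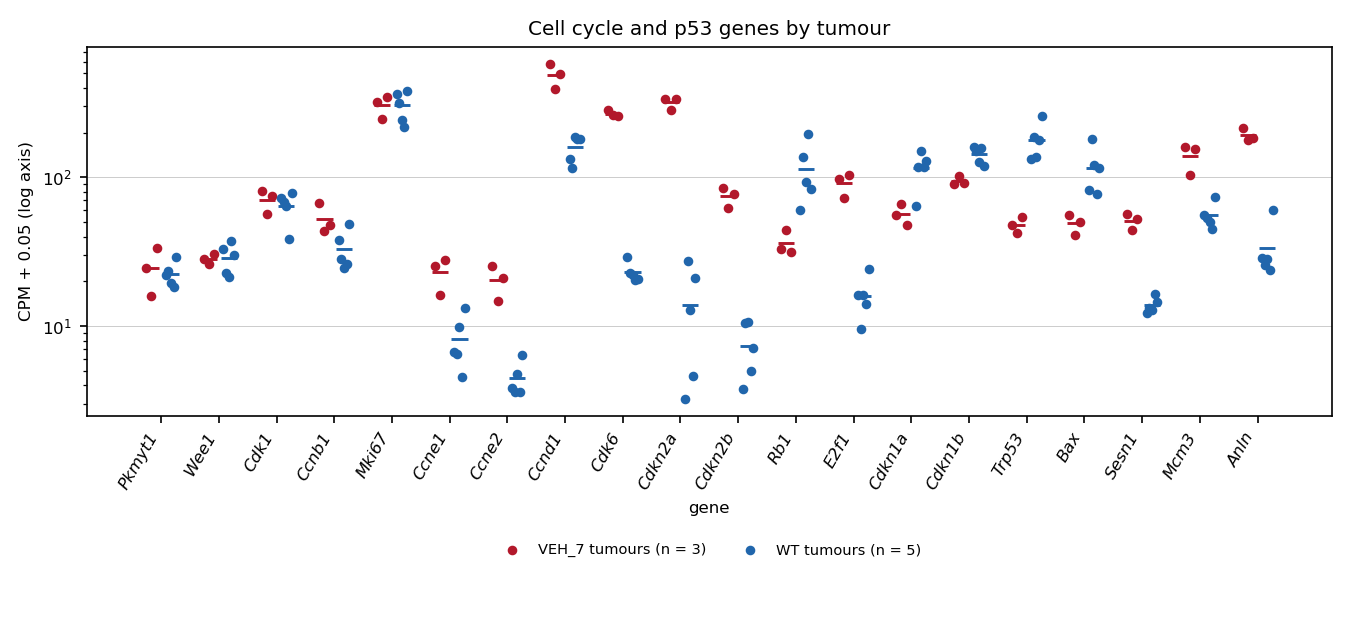
CPM plus 0.05 of 20 cell cycle and p53 genes on a log axis in the 3 VEH_7 tumours (red) and the 5 WT tumours (blue), with 1 point per tumour and a bar at the group mean. Pkmyt1, Wee1, Cdk1 and Mki67 overlap between the groups, while Ccne1, Ccne2, Cdk6, Cdkn2a and E2f1 are higher and Rb1 and Trp53 lower in every VEH_7 tumour.

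Trp53, which encodes the tumour suppressor p53, and several of its known targets were lower, while other targets rose or were not called. Trp53 (chromosome 11, 69580359 to 69591873) was at 47.8, 42.2 and 54.2 CPM in the VEH_7 tumours and 133, 186, 138, 179 and 259 CPM in the WT tumours. The groups did not overlap, and the log2 fold change was -1.91 (SE 0.25, adjusted p = 0.000109). Of 21 genes in the list of Trp53 and its targets 9 fell, Trp53 itself among them, and 3 rose. Over all genes tested 31.6% fell and 28.8% rose. Without WT tumour 5, 6 members of the list rose. Bax and Bbc3, which promote apoptosis, had log2 fold changes of -1.25 and -1.68, and Perp, a p53 target that is also a desmosomal gene and stands in the epithelial list, had a log2 fold change of -6.82, and -7.70 without VEH_7 tumour 3. Pmaip1, another apoptosis gene, rose by 2.07 and Sesn1, a stress-response target, by 1.88. Mdm2, the p53 ubiquitin ligase, was at 50.8, 67.6 and 55.2 CPM against 65.3 to 87.5 CPM and was not called (adjusted p = 0.0527). It was called without VEH_7 tumour 2 (0.0437), without WT tumour 1 (0.0407) or 4 (0.0336), with DESeq2 (0.0426), with limma voom (0.0468), in thinned libraries (0.0441) and with the length and GC offset (0.0117). Of 15 tested BCL2 family genes 9 fell and 5 rose, and 4 fell without VEH_7 tumour 2 or 3. Of 12 MYC and PIM genes 5 rose and 2 fell. The count that rose was 2 without VEH_7 tumour 1 or 2 or WT tumour 3, and 3 without WT tumour 1, and 1 fell without VEH_7 tumour 1 or 3. Mycn, a MYC family gene of neural and progenitor cells, was at 3.83, 4.13 and 4.69 CPM against 0 to 0.221 CPM, a log2 fold change of 4.90. Myc was at 159, 177 and 147 CPM against 81.1 to 162 CPM and was not called (adjusted p = 0.0542), but was called without WT tumour 5 (0.00266), with DESeq2 size factors (0.0486), with DESeq2 (0.0426), with limma voom (0.0335) and with the length and GC offset (0.0158).

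Macrophage genes were higher in the VEH_7 tumours. Of 21 tested macrophage markers 18 rose and 0 fell, with a median of 3.70, and the summed level of the list was 8394 to 8620 CPM against 658 to 1567 CPM. Without WT tumour 3 or 5, 1 fell. Adgre1, which encodes F4/80, was at 140, 127 and 137 CPM against 3.7, 2.92, 3.45, 6.66 and 1.78 CPM, a log2 fold change of 5.17 (SE 0.33). Csf1r, the receptor of the macrophage growth factor, was at 620, 620 and 646 CPM against 16.4 to 36.8 CPM, and Mrc1, the mannose receptor, at 318, 238 and 206 CPM against 3.73 to 6.79 CPM. They rose by 4.46 and 5.59. The chemokine receptor Ccr2 of monocytes rose by 6.49 and its ligand Ccl2 by 6.66 (SE 0.20, adjusted p = 4.89e-08). Ccl2 was at 130, 136 and 162 CPM against 1.06 to 1.78 CPM. Csf1, the ligand of Csf1r, was at 478, 377 and 468 CPM against 42 to 70.4 CPM and rose by 2.86. Of 22 checkpoint ligands and cytokines 12 rose and 3 fell, with log2 fold changes from -12.37 to 6.66. The summed level of this list was lower, at 1418 to 1540 CPM against 7943 to 17260 CPM. Lgals9 fell by 1.01 (adjusted p = 0.0162), a call lost without VEH_7 tumour 2 (0.0696) and with the length and GC offset (0.0532). Cd274, which encodes PD-L1, was at 10.1, 13.8 and 7.1 CPM against 1.77 to 5.41 CPM and rose by 1.70, and Cxcl12, a stromal chemokine, rose by 3.61.

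T cell genes were higher in the VEH_7 tumours. Of 21 tested T cell and cytotoxic markers 15 rose and 0 fell, with summed levels of 52.5 to 93.9 CPM against 9.63 to 25.3 CPM. Cd3e, a chain of the T cell receptor complex, was at 2.99, 1.6 and 3.07 CPM against 0.0552 to 0.656 CPM and rose by 3.01. Cd8a was at 3.45, 2.12 and 4.58 CPM against 0.178 to 2.22 CPM. It rose by 1.78 (adjusted p = 0.0277), a call lost without VEH_7 tumour 1 (0.0667), VEH_7 tumour 3 (0.106) or WT tumour 1 (0.0594) and in a fit over 32 libraries (0.0926). Of 7 tested B cell and plasma cell markers 3 rose and 1 fell, and the B cell gene Ms4a1 was too low to be tested. The member that fell was Xbp1, a secretory cell factor also made by luminal epithelium, at 174, 181 and 175 CPM against 870 to 1885 CPM. Of 8 tested neutrophil markers 4 rose and 2 fell and the neutrophil marker Ly6g had no count in the VEH_7 tumours and 2 counts in the WT tumours. Those that rose included Csf3r, by 2.36, and Mmp9, which also stands in the list of matrix metalloproteinases. The 2 that fell, S100a8 and Ltf, are also made by epithelium, so members on both sides are not particular to neutrophils. S100a9 was at 0.834, 3.52 and 0.345 CPM against 0.505 to 1.28 CPM and was not called (adjusted p = 0.435). S100a8 had a log2 fold change of -3.53, and -4.63 without VEH_7 tumour 2.

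Most antigen presentation genes rose. Of 10 MHC class II genes 9 rose and 0 fell, with a median of 2.09, and H2-Aa was at 524, 276 and 281 CPM against 34.3 to 133 CPM. Of 16 class I genes 11 rose and 1 fell. The count that rose was 7 without VEH_7 tumour 3, and 0 fell without VEH_7 tumour 1 or 2. B2m, the shared light chain, rose by 1.49 and the class I transactivator Nlrc5 by 3.08. H2-K1 rose by 1.13 and H2-D1 by 1.06, the latter lost without VEH_7 tumour 3 (adjusted p = 0.0602) and in a fit over 32 libraries (0.0546). H2 genes are similar in sequence, and how reads shared between them were counted was not given in the sources used here. Of 34 interferon-stimulated genes 11 fell, a share near the 31.6% of all genes, and 3 rose, with a median of -0.45. Of these genes 7 fell without VEH_7 tumour 1 and 6 without VEH_7 tumour 2. Irf7 and Irf9, factors of the interferon response, had log2 fold changes of -2.11 and -1.23. Cxcl10, a chemokine, was an exception, at 69.8, 42.1 and 110 CPM against 0.947 to 1.96 CPM, a log2 fold change of 5.71.

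Vessel genes were higher as well. Of 19 tested endothelial markers 18 rose and 0 fell, with a median of 1.38 and summed levels of 534 to 862 CPM against 209 to 270 CPM. Without VEH_7 tumour 2, 1 fell. Pecam1 was at 59, 103 and 74.6 CPM against 18.5 to 28.2 CPM and rose by 1.74, and Cdh5, the vascular cadherin, rose by 2.04. Of 12 pericyte and smooth muscle markers 5 rose and 1 fell, and 3 rose without VEH_7 tumour 2 or 3 or WT tumour 1 or 4. Cspg4, the NG2 proteoglycan, was at 144, 94.4 and 171 CPM against 3.23 to 7.35 CPM, while the pericyte gene Rgs5 was not called (adjusted p = 0.911). Of 13 tested adipocyte markers 0 rose and 3 fell, 1 rose without VEH_7 tumour 2, and the fat hormone gene Adipoq was at or under 0.455 CPM in the VEH_7 tumours. The macrophage, fibroblast and endothelial lists were higher together in the VEH_7 tumours, and the part of a change in cell makeup in the differences of other lists was not tested.

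Muscle and HOX genes varied with single tumours, and most neural genes tested were higher. Of 11 tested skeletal muscle genes 3 rose and 1 fell, against 28.8% and 31.6% of all genes tested. Their median was 0.95, and -0.07 without VEH_7 tumour 2. Acta1, skeletal actin, was at 0.152, 47.1 and 0.413 CPM in the VEH_7 tumours and 0.221, 14, 2.44, 0.252 and 1.17 CPM in the WT tumours, so VEH_7 tumour 2 and WT tumour 2 held most of it. Without VEH_7 tumour 2 the count that rose was 1, and 5 rose without WT tumour 2. Ttn, the giant sarcomere protein, rose by 2.62 (adjusted p = 0.0104), a call lost without VEH_7 tumour 2 (1.37, adjusted p = 0.122), with limma voom (0.0734) and with the length and GC offset (0.161). Without VEH_7 tumour 1 or 3, 0 fell. Of 16 tested HOX genes 6 rose and 0 fell, but 1 rose without VEH_7 tumour 2, and 1 fell without WT tumour 5. Of 12 tested neural and neural crest genes 8 rose and 2 fell. Xist, the RNA of the inactive X chromosome, was at 1057, 1556 and 1507 CPM against 1124 to 1936 CPM and was not called (adjusted p = 0.694, and 0.0262 with the length and GC offset). Ncam1, a neural adhesion molecule, was at 102 to 117 CPM against 3.43 to 13 CPM, a log2 fold change of 3.90, and Gap43, a growth cone protein, rose by 6.42.

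Short transcripts were lower in the VEH_7 tumours across the genome. The median log2 fold change was -1.61 for 414 genes with under 500 exonic bases, -0.21 for 5112 genes of 2000 to 4000 bases and 0.42 for 2535 genes above 8000 bases. With an offset that removed each library's trend over length and GC these medians were -0.36, -0.08 and -0.06, and 9811 genes were called. Counts from mitochondrial genes made up 1.27 to 1.98% of the VEH_7 libraries and 2.73 to 7.75% of the WT libraries, and cytosolic ribosomal protein genes 1.41 to 1.86% against 2.34 to 3.55%. Each of these shares, those of histone genes and of genes under 500 bases, and the total count did not overlap between the groups. Each gave p = 0.0357 in a two-sided exact permutation test over 56 splits, the smallest p that 3 against 5 allows, and an adjusted p of 0.05 over 7 measures, which does not pass the threshold.

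**Figure D4:**
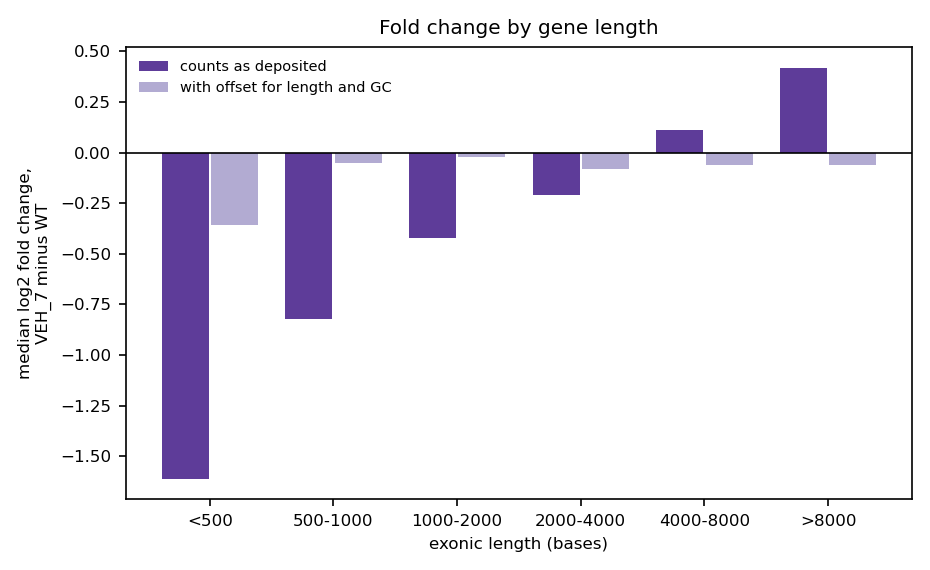
Median log2 fold change of VEH_7 minus WT for genes grouped by exonic length, with the counts as deposited (dark) and with an offset for gene length and GC (light). The dark bars run from -1.61 for genes under 500 bases to 0.42 for genes above 8000 bases, and the light bars from -0.36 to -0.02.

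The lists of short genes are to be read beside this trend. Of 13 mitochondrially encoded genes 12 fell and 0 rose, with a median of -1.56, but 3 fell with the length and GC offset and 6 without VEH_7 tumour 3. mt-Nd1, a complex I subunit, was at 2443, 1875 and 1380 CPM against 5771, 10350, 4711, 3993 and 2863 CPM and fell by 1.56 (adjusted p = 0.00963, and 0.0538 with the offset). Of 35 cytosolic ribosomal protein genes 21 fell and 1 rose. With the offset 15 fell and 3 rose, and without VEH_7 tumour 2, 12 fell. Rpl23 was at 48.2, 35.4 and 60.7 CPM against 240 to 531 CPM, a log2 fold change of -2.83, while Rpl3 was not called (adjusted p = 0.851). Of 34 nuclear genes of oxidative phosphorylation 18 fell and 2 rose, and 14 fell and 4 rose with the offset. Without VEH_7 tumour 1, 0 rose, and 1 rose without VEH_7 tumour 2. Cox5b, a cytochrome oxidase subunit, fell by 1.83. Of 12 tested clustered histone genes 6 fell and 0 rose, and of 11 tested small and nuclear non-coding RNAs 7 fell and 0 rose. Whether RNA was selected by poly(A) was not given in the sources used here. Neat1, the long RNA of paraspeckles, was at 306, 661 and 516 CPM against 1591 to 2499 CPM and fell by 2.10.

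Metabolic and stress lists were split between directions, as were all genes tested, of which 28.8% rose and 31.6% fell. Of 18 lipid synthesis genes 8 rose and 4 fell, and 5 rose without VEH_7 tumour 1 or WT tumour 2, 3 or 4. Srebf1, the factor of fatty acid synthesis, was at 133, 117 and 128 CPM against 1188, 1327, 1247, 2133 and 664 CPM, a log2 fold change of -3.38, whereas Idi1 of the sterol pathway rose by 2.14. Of 27 rows of hypoxia and glycolysis genes 7 rose and 8 fell, shares close to those over all genes, and 4 rose without VEH_7 tumour 2. Car9, a hypoxia-induced carbonic anhydrase, fell by 2.39, the lactate transporter Slc16a3 rose by 2.73 (3.59 without WT tumour 5), and Vegfa, the vessel growth factor, and Slc2a1, the glucose transporter, were not called. Of 19 tested NRF2 and glutathione genes 8 rose and 2 fell. Nfe2l2, which encodes NRF2, was at 148, 183 and 108 CPM against 37.9 to 75 CPM and rose, while its target Nqo1 was at 4.32, 1.79 and 1.93 CPM against 46.8 to 98.6 CPM and fell by 4.86. Of 18 immediate early genes 7 rose and 5 fell, the latter a share close to that over all genes. Fosl1, an AP-1 subunit, was at 110, 112 and 75.5 CPM against 1.46 to 4.99 CPM, a log2 fold change of 4.87, and the transcription factor Klf4 rose by 3.85, while Fos, another AP-1 subunit, fell by 2.10. Of 18 heat shock genes 5 rose, a share close to that over all genes, and 2 fell. The count that rose was 3 without VEH_7 tumour 3 and 8 without WT tumour 5, and 1 fell without VEH_7 tumour 1 or 3 or WT tumour 3. Serpinh1, the collagen chaperone, rose by 1.45 and Hspb1, a small heat shock protein, fell by 2.04.

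**Figure D5:**
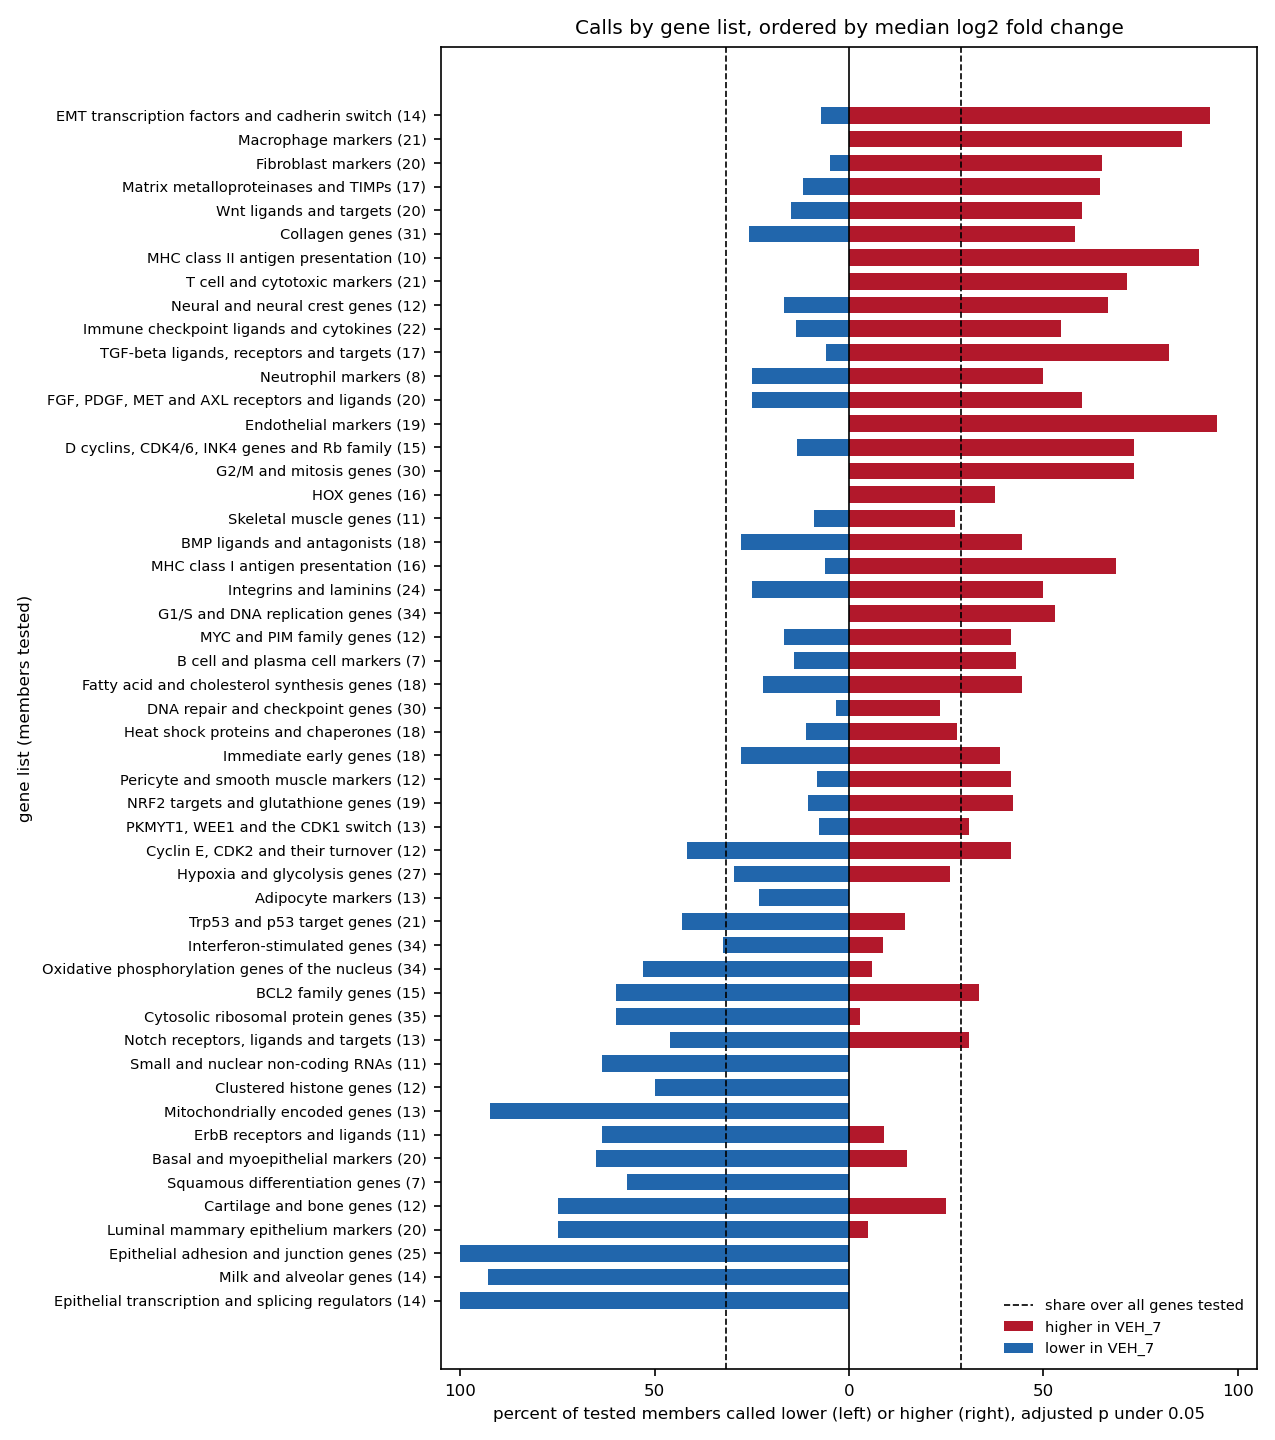
Percent of the tested members of each gene list with 7 or more tested members that were called lower (blue, left) or higher (red, right) in the VEH_7 tumours, with the number tested in brackets and dashed lines at the shares over all genes tested, 31.6% lower and 28.8% higher. Lists are ordered by median log2 fold change, from -7.28 for the epithelial transcription and splicing regulators to 3.98 for the EMT list.

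The extremes of the contrast were taken among called genes without overlap of the groups and with a mean log2 CPM of 1 or more. Grid1 (chromosome 14, 34820108 to 35583379), a glutamate receptor delta subunit of synapses, was at 24.5, 32.7 and 30.5 CPM in the VEH_7 tumours and had no count in the WT tumours, which is at least 869-fold higher. Rspo4, a Wnt potentiator of nail development, was at 32.5, 29.9 and 14.7 CPM, also with no count in the WT tumours, and at least 756-fold higher. Nell2, Diras2 and Rgs17, genes best known in neurons, had no count in the WT tumours either and were higher by at least 422-fold, 376-fold and 280-fold. Acan was at 203, 145 and 187 CPM against 0.165, 0, 0.178, 0 and 0 CPM, 6 counts over the WT tumours. Its log2 fold change was 11.23 (SE 0.48), and 11.82 without WT tumour 1 and 11.86 without WT tumour 3. Il1rl1, the receptor of interleukin 33, was at 219, 499 and 301 CPM against 0.0557 to 0.357 CPM, a log2 fold change of 10.91 (SE 0.42). Brinp3, a gene of neural cells, had a log2 fold change of 10.70, with its 7 WT counts all in WT tumour 4. Without that tumour the fitted value was 14.59, which is no bound.

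The 8 lowest all had no count in the VEH_7 tumours. Pigr (chromosome 1, 130826684 to 130852249), the receptor that carries polymeric immunoglobulin across secretory epithelium, was at 312, 115, 53, 175 and 48.3 CPM in the WT tumours and at least 4121-fold lower in the VEH_7 tumours. Scgb2b27 and Scgb1b27, genes of secreted androgen-binding protein subunits, were lower by at least 6178-fold and 1139-fold. They varied widely among the WT tumours, with Scgb1b27 at 0.357 to 83.1 CPM, and Scgb1b27 was not called with limma voom (adjusted p = 0.0958). Saa2, an acute phase protein, was at least 2591-fold lower. The Scgb and Saa genes have near-identical neighbours, so their counts are uncertain. Lao1, an amino acid oxidase of milk, was at 355 CPM in WT tumour 1 against 12.4 to 35.1 CPM in the others and at least 2676-fold lower, and Alkal2, a ligand of the ALK receptor, at least 1926-fold lower. The fitted values moved without WT tumour 1, from -13.97 to -12.21 for Lao1 and from -13.51 to -12.78 for Alkal2. Cldn2, a claudin of leaky epithelia, and Aass, an enzyme of lysine breakdown, were lower by at least 1348-fold and 1094-fold. Aass was at 48.6, 41.7, 30.6, 44.5 and 24.3 CPM in the WT tumours and varied least among these 8 by the standard error of its log2 fold change (0.60).

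The levels in the other tumours of the series place both groups, as a description with no test. In the 4 inhibitor-treated tumours with the ending _7, Epcam was at 1.79 to 5.35 CPM and Vim at 4081 to 4829 CPM. In the 4 vehicle tumours without the ending, Epcam was at 8.91 to 238 CPM and Vim at 4292 to 5699 CPM. Low Epcam with high Vim was thus not particular to the ending _7. The MYT tumours had Epcam at 968 to 1932 CPM and Vim at 421 to 1259 CPM. In the 5 untreated tumours titled SPON, Epcam was at 1171 to 1692 CPM and Vim at 261 to 1539 CPM. The tumour suppressor gene Trp53 was at 2.39 to 47.2 CPM in the SPON tumours, 20.1 to 36.5 CPM in the 4 vehicle tumours without the ending and 51.5 to 61.7 CPM in the inhibitor-treated _7 tumours, so that the 5 WT tumours, at 133 to 259 CPM, were above these groups. Csn3 was at 39.1 to 453 CPM in the SPON tumours, against 5079 to 15162 CPM in the WT tumours. Lalba was at most 4.23 CPM and Wap at most 0.622 CPM in every group other than WT. Lao1, from the lowest genes above, was at most 0.173 CPM in those groups. The high levels of these 3 genes were thus particular to the WT tumours. This did not hold for the casein gene Csn1s1 and for Alkal2, at 459 to 1254 CPM and 24.7 to 107 CPM in the MYT tumours. Rspo4 was at 22.8 to 31.2 CPM in the inhibitor-treated _7 tumours and at most 1.08 CPM in the vehicle tumours without the ending.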

How the data were processed

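RNA from mouse mammary tumours was sequenced in bulk. The authors deposited raw counts per gene, 1 column per tumour; STAR 2.7.10a, HTSeq, edgeR and build GRCm38 are named, with no role or order, in the submitters' processing notes. The authors also deposited log2 CPM values, used only as a check (difference of 0.0576 from values recomputed from the counts). Annotation release, read filters and strandedness were not given in the sources used here, so overlapping genes on opposite strands cannot be told apart. Genes of similar sequence (secretoglobins, Saa, H2, Hspa1, Bcl2a1 and histone genes) are uncertain.

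Of 54532 rows, 16894 passed edgeR's filterByExpr over the 3 VEH_7 and 5 WT libraries and were fitted with TMM factors and the quasi-likelihood test (edgeR 4.0.16, R 4.3.3), with Benjamini-Hochberg adjustment over all genes. No covariate was used. CPM values use TMM factors over 32 libraries. 1 of the 33 samples, whose title and treatment label disagree, is in no group. The alternatives were DESeq2 1.42.0, its size factors, limma 3.58.1 voom, no filter, a fold of at least 2, a fit over 32 libraries, libraries thinned to the smallest total, and leaving out each library. An offset for exonic length and GC (GENCODE M21, 16880 genes, loess span 0.4) was chosen after seeing the data. The scripts were tested on simulated data in which few genes changed, and by modest folds. That test did not cover a contrast in which most genes differ, as here.

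The members and the 52 gene lists (1017 genes, 1013 found, 908 tested) were chosen with earlier results of these data known. The rule named Pkmyt1, Wee1, Cdk1, Ccnb1, Ccne1, Ccne2, Cdkn1a, Trp53, Mki67, Epcam, Cdh1 and Vim, the 8 largest and 8 smallest changes, and for each list its first 2 tested genes and the 2 with the smallest p. All other genes named, such as Csn3, Fn1, Cdkn2a and Hgf, were chosen after their values were seen. Promoter windows come from RefSeq (GRCm38.p6). Protein sequences were not used here. Some genes of the lists are not reported here.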

Additional observations from a re-analysis of the deposited data

Results flagged for a closer look

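The highest or lowest of the 5 WT tumours stood apart from the other 4 in 34 of 271 sets of values examined (gap over range above 0.71). Chance flags about 1 in 20 such groups if values are normally distributed. CPM values can be skewed, nearly all flags were at the high end, and the rate for such values was not measured. A tumour that differs as a whole is counted in many genes. The VEH_7 group, with 3 tumours, was not examined in this way.

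WT tumour 5 was high in mitosis and replication genes: Top2a at 246 CPM (others 77.1 to 114), Anln at 60.5 CPM (23.9 to 28.5), Topbp1 at 79 CPM (40.9 to 47.4), Cdc25b at 39.3 CPM (14.8 to 21.1) and Pola1 at 25.2 CPM (16.4 to 18.8). It was also high in Fn1 at 1070 CPM (55.2 to 123), Mmp13 at 16.9 CPM (3.53 to 7.13), Krt14 at 271 CPM (44.5 to 91.7), Bmp2 at 4.79 CPM (0.883 to 1.61), Bmp4 at 13.9 CPM (1.93 to 4.89) and Sox11 at 3.28 CPM (0.165 to 0.952). It was low in Rab25 at 106 CPM (138 to 150) and Sbsn at 14.9 CPM (25.5 to 26.7).

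WT tumour 4 was high in Pdgfra at 21.6 CPM (11.1 to 13.7), Col1a2 at 472 CPM (186 to 267), Notch1 at 199 CPM (65.1 to 102), Notch3 at 157 CPM (87.5 to 101), Met at 121 CPM (63.9 to 78.3) and Spint1 at 82.5 CPM (57.2 to 63.5). It was also high in Fosb at 23 CPM (2.37 to 7.25), Wnt2b at 1.87 CPM (0.557 to 0.891), Cd3d at 0.555 CPM (0.0557 to 0.165) and Brinp3 at 0.353 CPM, where the others had no count.

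WT tumour 2 had 7.75% of its counts in mitochondrial genes, against 2.73 to 4.13% in the others. It was high in the muscle genes Acta1 at 14 CPM (0.221 to 2.44) and Ttn at 3.36 CPM (0.832 to 1.28), and in Fgfr2 at 18.9 CPM (2.51 to 7.12), Wnt4 at 4.5 CPM (0.221 to 1.01), Axin2 at 3.62 CPM (1.49 to 2.08) and Krt10 at 6.92 CPM (3.81 to 4.64). WT tumour 1 was high in Lao1 at 355 CPM (12.4 to 35.1), Cdk6 at 29.3 CPM (20.3 to 22.8) and Hist1h1d at 2.87 CPM (1 to 1.27), and WT tumour 3 in Cd79a at 0.119 CPM (0.0505 to 0.0634).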

How the results depend on the processing

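The number of genes called was 8710 to 10560 with each library left out in turn (4215 to 5115 higher, 4495 to 5445 lower), the fewest without VEH_7 tumour 2. It was 10233 with DESeq2 size factors, 10748 with DESeq2, 10539 with limma voom, 10739 with no filter, 10267 in a fit over 32 libraries, 9974 in thinned libraries and 9811 with the length and GC offset. With a tested fold of at least 2 it was 4857, of which 2263 were higher and 2594 lower. The share of calls that were higher was 46.6 to 49.2% in all these settings. Among values for single genes and lists over all settings, 6306 kept direction and call or, for counts, stayed within 1.5 times, 132 lost a call, 31 gained one, 244 moved further and 2 reversed. The median of the skeletal muscle list was 0.95, and -0.07 without VEH_7 tumour 2 and 1.85 without WT tumour 2. Ndufa2, a complex I subunit, was at -0.72 on the log2 scale (adjusted p = 0.0232), and at 0.26 (adjusted p = 0.164) with the length and GC offset. The cause was not tested. Lao1 has no adjusted p with DESeq2. Depth limits genes with no count in a group, for which only bounds are given. No paired analysis was possible because the labels give the groups no shared replicate numbers.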

Other observations

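Neighbouring genes moved together along parts of some chromosomes. Over windows of 40 consecutive genes and mean log2 CPM values of 2 or more, the 5th and the 95th percentile of the windows' median log2 fold changes were -0.60 and 0.60. The lowest window lay on chromosome 11, 115163341 to 116274217 (GRCm38), from Slc9a3r1 to Srp68, with a median of -1.59, 0 genes higher and 28 lower. With the length and GC offset its median was -1.51. Against the same WT tumours it was also lower in every other group, at -1.29 in the inhibitor-treated _7 tumours, -1.33 in the vehicle tumours without the ending, -0.95 in the MYT tumours and -0.74 in the SPON tumours. It was thus highest in the WT tumours and was not particular to the VEH_7 tumours. Windows on chromosome 7, 141061104 to 143503150, and chromosome 6, 38694390 to 48541801, had medians of -1.35 and -1.27. The highest window lay on chromosome 5, 3341485 to 21662694, from Cdk6 to Armc10, with a median of 1.25, 25 genes higher and 4 lower, and 0.99 with the offset. There the other groups were at 1.38, 0.82, 0.26 and 0.00 in the same order. Windows on chromosome 1, 135371057 to 151721939, and chromosome 2, 127791388 to 131198497, had medians of 1.06 and 0.91. The windows on chromosomes 7, 1 and 2 also kept their sign against the WT tumours in each of the other groups, which share these controls. These windows were chosen for their values and have no test, and DNA copy number was not measured here.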
